A study of Homo sapiens with 6 samples.

Results

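The NRF2 antioxidant genes described here are 9 genes: the transcription factor gene NFE2L2, its repressor KEAP1, and 7 genes of the antioxidant response, HMOX1, SLC48A1, NQO1, TXNRD1, SRXN1, GCLC and GCLM. They were chosen by gene symbol from the 23754 features of the deposited expression table, by a rule that uses no measured value although earlier results of these data were known, and each of the 9 symbols was found there. All 9 had enough counts to enter the test, which was run on 13991 features.

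RNA was sequenced from IMR-90, a line of human fetal lung fibroblasts, to ask which transcripts change when the zinc finger protein gene ZNF469 is depleted. The cells carried a lentiviral hairpin against ZNF469 (sh-2) that is expressed when doxycycline is present. The 3 Sh-ZNF469 libraries came from cells given 2 µg/mL doxycycline for 4 days, and the 3 Control libraries came from the line that was not induced, although the labels give its genotype as wild-type. Every Sh-ZNF469 library therefore combined doxycycline with hairpin expression, and the effects of each cannot be told apart here. Both groups passed through puromycin selection, only 1 of the study's hairpins was sequenced, and the submitted design calls the libraries technical replicates, so the p-values below measure a spread that may be technical.

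NRF2, the protein made from NFE2L2, is a transcription factor whose amount is set mainly by protein turnover. KEAP1 presents it to a CUL3 ubiquitin ligase, and oxidants or electrophiles that modify KEAP1 cysteines let NRF2 escape, pair with a small MAF protein and bind antioxidant response elements. Its targets make and use glutathione and thioredoxin, break down haem, store iron and supply NADPH, and so protect cells, lung fibroblasts among them, from oxidants. RNA levels do not measure the NRF2 protein itself.

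The core of an antioxidant response element, written here as TGACNNNGC, was looked for on both strands of the RefSeq promoters (GRCh38.p14), each covering 250 bases before and 50 bases after a start site. The table held 11 promoters for 8 of the 9 genes, and the gene without an entry was HMOX1. The core occurred in 4 of these 11 promoters, belonging to TXNRD1, KEAP1 and GCLM, beside 13.3% of all 35116 promoters and 21 of the 106 promoters of the other pathway genes described below. The core can overlap an AP-1 site, TGACTCA, which was present in 0 of the 6 matches. A match is a description of the sequence, not evidence of binding. The matching windows are shown because they allow the genes that changed and those that did not to be compared by eye. They are written from 5′ to 3′ along the strand of the gene, with the core, or its reverse complement, in capitals:
TXNRD1, first promoter, chr12:104215670-104215698: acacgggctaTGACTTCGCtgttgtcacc
TXNRD1, first promoter, chr12:104215761-104215789: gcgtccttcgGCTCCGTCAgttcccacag
TXNRD1, second promoter, chr12:104286920-104286948: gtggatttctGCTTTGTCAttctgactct
KEAP1, chr19:10502807-10502835: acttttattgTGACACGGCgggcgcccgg
KEAP1, chr19:10502784-10502812: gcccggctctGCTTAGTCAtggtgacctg
GCLM, chr1:93909446-93909474: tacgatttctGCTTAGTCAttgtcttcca

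The longer stretches of 250 bases before the start site are given for 1 promoter of TXNRD1 and for NQO1, whose transcripts were lower in Sh-ZNF469 cells, and for GCLM, whose transcript did not pass the test. Capitals again mark the core:
TXNRD1, second promoter, chr12:104286782-104287031, plus strand: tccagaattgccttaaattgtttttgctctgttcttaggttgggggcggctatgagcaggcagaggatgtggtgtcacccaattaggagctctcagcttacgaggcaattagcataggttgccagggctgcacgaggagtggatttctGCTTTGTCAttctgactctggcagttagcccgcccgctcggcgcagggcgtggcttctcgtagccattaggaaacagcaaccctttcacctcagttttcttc
NQO1, chr16:69726561-69726810, minus strand: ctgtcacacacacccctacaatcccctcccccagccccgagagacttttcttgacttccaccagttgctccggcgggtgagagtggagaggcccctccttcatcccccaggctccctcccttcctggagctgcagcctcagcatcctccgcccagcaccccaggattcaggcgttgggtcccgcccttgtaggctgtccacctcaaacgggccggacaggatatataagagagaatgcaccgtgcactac
GCLM, chr1:93909431-93909680, minus strand: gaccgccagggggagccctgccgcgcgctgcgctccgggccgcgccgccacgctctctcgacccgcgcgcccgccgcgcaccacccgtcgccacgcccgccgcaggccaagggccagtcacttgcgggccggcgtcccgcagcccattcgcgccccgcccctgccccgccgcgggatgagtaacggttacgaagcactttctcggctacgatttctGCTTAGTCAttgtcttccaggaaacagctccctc
TXNRD1 and GCLM each held the core in these stretches, and NQO1 did not. Sequence outside the promoter windows was not searched, so a gene without a match here may hold the core elsewhere. HMOX1 could not be included, and whether the core goes with the changes was not tested.

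The counts summed to between 34057675 and 36120260 per library. ZNF469 (ENSG00000225614; chr16:88382959-88440757) was measured at 118, 112 and 126 CPM (counts scaled to library size after TMM normalization) in the Control libraries and at 80.4, 80.4 and 79.6 CPM in the Sh-ZNF469 libraries. Its log2 fold change was −0.57 (SE 0.0477, adjusted p = 3.31e-05 by the quasi-likelihood test of edgeR, with p-values adjusted by the Benjamini-Hochberg method), so 67.5% of the transcript remained. Sh-ZNF469 replicate 2 stood apart on the first principal component, which held 25.7% of the variance, with a score of 20.28 against −11.3 to 4.06 in the other libraries. All 8 fibroblast markers examined had 10 or more counts in every library, and their summed level was 36476 to 37586 CPM in Control and 27101 to 27992 CPM in Sh-ZNF469. The difference in the sum came mostly from COL1A1 and COL1A2, with log2 fold changes of −0.69 and −0.50. By edgeR, 5 of the 8 markers were called lower (COL1A1, COL1A2, COL3A1, DCN and LUM), whereas VIM (−0.02), PDGFRA (−0.00) and THY1 (0.04) did not pass and their groups overlapped. The part of these markers in the results below was not tested. The epithelial markers SFTPC, SFTPB and NKX2-1, the endothelial markers PECAM1 and CDH5, and the immune markers LYZ, CD3E and MARCO were at 0 in every library. EPCAM, CDH1, CLDN18, VWF, KDR and PTPRC, also examined, had at most 31 counts in a library. The immune marker CD68 was the exception, at 58.8 to 66.7 CPM across the libraries. In these bulk samples, fewer cells of a kind and less RNA per cell cannot be told apart.

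HMOX1, NQO1 and TXNRD1 were lower in the Sh-ZNF469 libraries, at 79.6%, 85.9% and 90.3% of their Control levels. Of the 9 genes, 3 passed the false discovery rate (FDR) of 0.05 with a lower level and 0 with a higher level, while 0.715% of all features tested passed with a lower level and 0.400% with a higher level. At an unadjusted p under 0.05 the counts were also 3 and 0, beside 7.69% of all features lower and 7.31% higher. DESeq2 likewise called 0 of the 9 higher, although it gave no adjusted p for SLC48A1. None of the 9 genes met the rule stated in the methods of the study, which adds an absolute log2 fold change above 1. In the edgeR fit used here, 0.0429% of the features met it, and neither ZNF469 (−0.57) nor COL1A1 (−0.69) did. The paper reported far more genes under this rule, in both directions, without naming its test. The cause of that difference was not tested. The log2 fold changes of the 9 genes ran from −0.33 to 0.08, with 7 below 0, 2 above 0 and a median of −0.05, while the median of all features was −0.00. The Sh-ZNF469 libraries all lay below the Control libraries for 4 of the 9 genes and all above them for 0. Such a separation was found for 10.6% of all features in the lower direction and 9.73% in the higher direction. For a gene whose groups are separated, the two-sided exact permutation test gives p = 0.1, the smallest that 3 libraries against 3 allow.

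**Figure D1:**
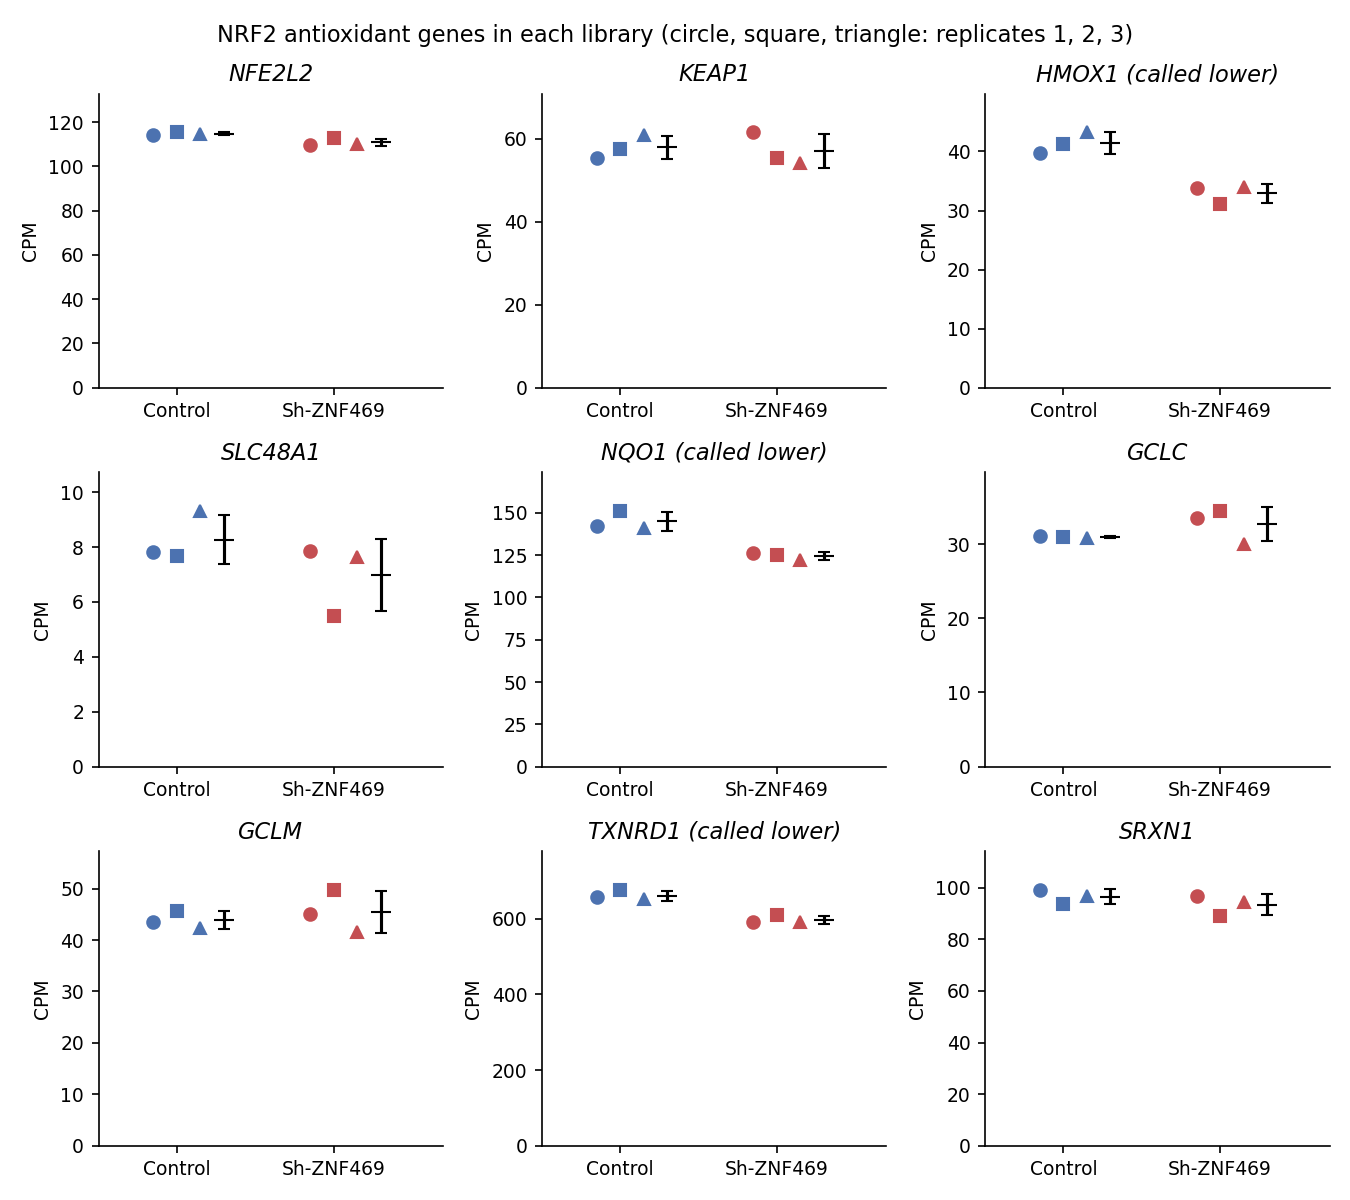
Level of each NRF2 antioxidant gene in CPM (counts scaled to library size, vertical axes from 0) in the 3 Control (blue) and 3 Sh-ZNF469 (red) libraries. Circles, squares and triangles are replicates 1, 2 and 3, and the black bars give the mean and SD. The groups are apart for HMOX1, NQO1, TXNRD1 and NFE2L2 and overlap for the other 5 genes.

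HMOX1 (ENSG00000100292; chr22:35380361-35394214, plus strand) encodes haem oxygenase 1, the inducible enzyme that splits haem into biliverdin, carbon monoxide and iron. Its level was 39.7, 41.2 and 43.3 CPM in Control replicates 1, 2 and 3 and 33.8, 31.1 and 34.0 CPM in Sh-ZNF469 replicates 1, 2 and 3. Every Sh-ZNF469 library was below every Control library. The means were 41.4 ± 1.80 CPM (SD, n = 3) and 33.0 ± 1.60 CPM (SD, n = 3), and HMOX1 fell to 79.6% of Control (95% interval 73.1% to 86.6%). The log2 fold change was −0.33 with an SE of 0.0566, and edgeR gave a Benjamini-Hochberg adjusted p of 0.0112. Among the 9 genes it had the change furthest from 0, and its fold change lay just outside the range of −0.32 to 0.30 that held the middle 90% of all features. The call did not hold without Control replicate 2 (edgeR adjusted p = 0.0522), Control replicate 3 (0.0700) or Sh-ZNF469 replicate 1 (0.0501), or with limma on log2(FPKM + 0.1) (0.0875).

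SLC48A1 (ENSG00000211584; chr12:47753916-47782751, plus strand) encodes HRG1, which carries haem out of endosomes and lysosomes into the cytosol, where haem oxygenase acts. It was the least abundant of the 9 genes, with 194 to 325 counts per library. Its level was 7.82, 7.68 and 9.32 CPM in Control and 7.85, 5.47 and 7.65 CPM in Sh-ZNF469. The groups overlapped, with Control replicate 3 above all other libraries and Sh-ZNF469 replicate 2 below them. The log2 fold change of −0.24 (95% interval −0.56 to 0.07) did not pass the test (edgeR adjusted p = 0.469), and it was −0.09 without Sh-ZNF469 replicate 2. The interval held both 0 and the estimate for HMOX1, so a fall of that size could not be told from no change in these libraries. Some exonic bases of SLC48A1 are shared with RAPGEF3 and HDAC7 on the opposite strand.

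NQO1 (ENSG00000181019; chr16:69706996-69726668, minus strand) encodes a quinone reductase that uses NADH or NADPH and is a standard readout of NRF2 activity. Its level was 142, 151 and 141 CPM in Control replicates 1, 2 and 3 and 126, 125 and 122 CPM in the Sh-ZNF469 replicates. The Sh-ZNF469 libraries lay close together and all below Control. The means were 145 ± 5.45 CPM (SD, n = 3) in Control and 124 ± 2.21 CPM (SD, n = 3) in Sh-ZNF469, and NQO1 fell to 85.9% of Control (95% interval 80.8% to 91.3%). The log2 fold change was −0.22 (SE 0.0410, Benjamini-Hochberg adjusted p = 0.0205 by edgeR). With each library left out in turn, NQO1 was called in 2 of 6 fits, those without Control replicate 3 and without Sh-ZNF469 replicate 2, and the adjusted p ran from 0.0378 to 0.103. The limma test on FPKM gave an adjusted p of 0.133. NQO1 shares 575 exonic bases with the long non-coding RNA gene ENSG00000261602 on the opposite strand, which is not among the features.

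TXNRD1 (ENSG00000198431; chr12:104215779-104350307, plus strand) encodes the cytosolic thioredoxin reductase, a selenoprotein that passes electrons from NADPH to thioredoxin. Its level was 657, 677 and 651 CPM in Control and 591.5, 609.8 and 590.4 CPM in Sh-ZNF469. The groups did not overlap, and replicate 2 was the highest library in both. With means of 662 ± 13.4 CPM (SD, n = 3) in Control and 597 ± 10.9 CPM (SD, n = 3) in Sh-ZNF469, TXNRD1 fell to 90.3% of Control (95% interval 86.4% to 94.3%). Of the 3 called genes it had the fold change nearest 0 and the narrowest interval, with a log2 fold change of −0.15 (SE 0.0295, edgeR adjusted p = 0.0314). This call was lost with library size scaling (adjusted p = 0.0643) and in 5 of the 6 fits that left out a library (adjusted p up to 0.168), and held only without Sh-ZNF469 replicate 2 (0.0190). The limma test on FPKM gave an adjusted p of 0.260.

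SRXN1 (ENSG00000271303; chr20:646615-653200, minus strand) encodes sulfiredoxin, which repairs overoxidized peroxiredoxins. Its level was 99.2, 93.6 and 97.0 CPM in Control and 96.9, 88.9 and 94.6 CPM in Sh-ZNF469. The groups overlapped, and replicate 2 was the lowest library of each. The log2 fold change was −0.05 (95% interval −0.15 to 0.05, edgeR adjusted p = 0.669), so a fall as large as the estimate for HMOX1 or NQO1 lay outside the interval, while that estimated for TXNRD1 lay at its edge. SRXN1 shares 2292 exonic bases with ENSG00000270299 on the same strand, but that feature had 9 counts in all libraries together.

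GCLC (ENSG00000001084; chr6:53497341-53616970, minus strand) and GCLM (ENSG00000023909; chr1:93885199-93909456, minus strand) encode the catalytic and modifier subunits of glutamate-cysteine ligase, the first and rate-limiting enzyme of glutathione synthesis. GCLC was measured at 31.1, 31.0 and 30.9 CPM in Control and at 33.5, 34.5 and 30.1 CPM in Sh-ZNF469. GCLM was measured at 43.5, 45.7 and 42.3 CPM in Control and at 45.1, 49.8 and 41.5 CPM in Sh-ZNF469. For both subunits the groups overlapped, and Sh-ZNF469 replicate 2 was the highest and Sh-ZNF469 replicate 3 the lowest of the 6 libraries. The log2 fold changes were 0.08 for GCLC (95% interval −0.06 to 0.21, edgeR adjusted p = 0.598) and 0.05 for GCLM (95% interval −0.09 to 0.19, edgeR adjusted p = 0.750). Without Sh-ZNF469 replicate 2 these values became 0.04 for GCLC and −0.02 for GCLM. Neither interval reached the estimated fall of HMOX1, NQO1 or TXNRD1. GCLC shares 529 exonic bases with ENSG00000231683 on the same strand and 305 with GCLC-AS1 on the opposite strand. Both are long non-coding RNA genes that are not among the features.

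NFE2L2 (ENSG00000116044; chr2:177218667-177392756, minus strand), which encodes NRF2, was measured at 114, 116 and 114 CPM in Control and at 109.6, 113 and 110.1 CPM in Sh-ZNF469. The Sh-ZNF469 libraries all lay below the Control libraries, but by a small margin. The mean was 115 ± 0.767 CPM (SD, n = 3) in Control and 111 ± 1.57 CPM (SD, n = 3) in Sh-ZNF469, and the log2 fold change of −0.05 (95% interval −0.13 to 0.03) did not pass edgeR's quasi-likelihood test (adjusted p = 0.572). NFE2L2 shares 3509 exonic bases with HNRNPA3 on the opposite strand in GENCODE 44, and HNRNPA3 had 82445 counts over the 6 libraries. NFE2L2 also shares 2037 with the long non-coding RNA gene ENSG00000213963 on the same strand, which is not among the features. Whether the counting used strand is not given in the sources used here, so reads from such shared stretches may not have been told apart.

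KEAP1 (ENSG00000079999; chr19:10486125-10503558, minus strand), the adaptor that targets NRF2 for degradation, was measured at 55.4, 57.7 and 60.9 CPM in Control and at 61.7, 55.5 and 54.1 CPM in Sh-ZNF469. The highest and the lowest of these values both belonged to Sh-ZNF469 libraries. The log2 fold change was −0.02 (95% interval −0.15 to 0.10, edgeR adjusted p = 0.895), and its sign changed with the libraries used.

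**Figure D2:**
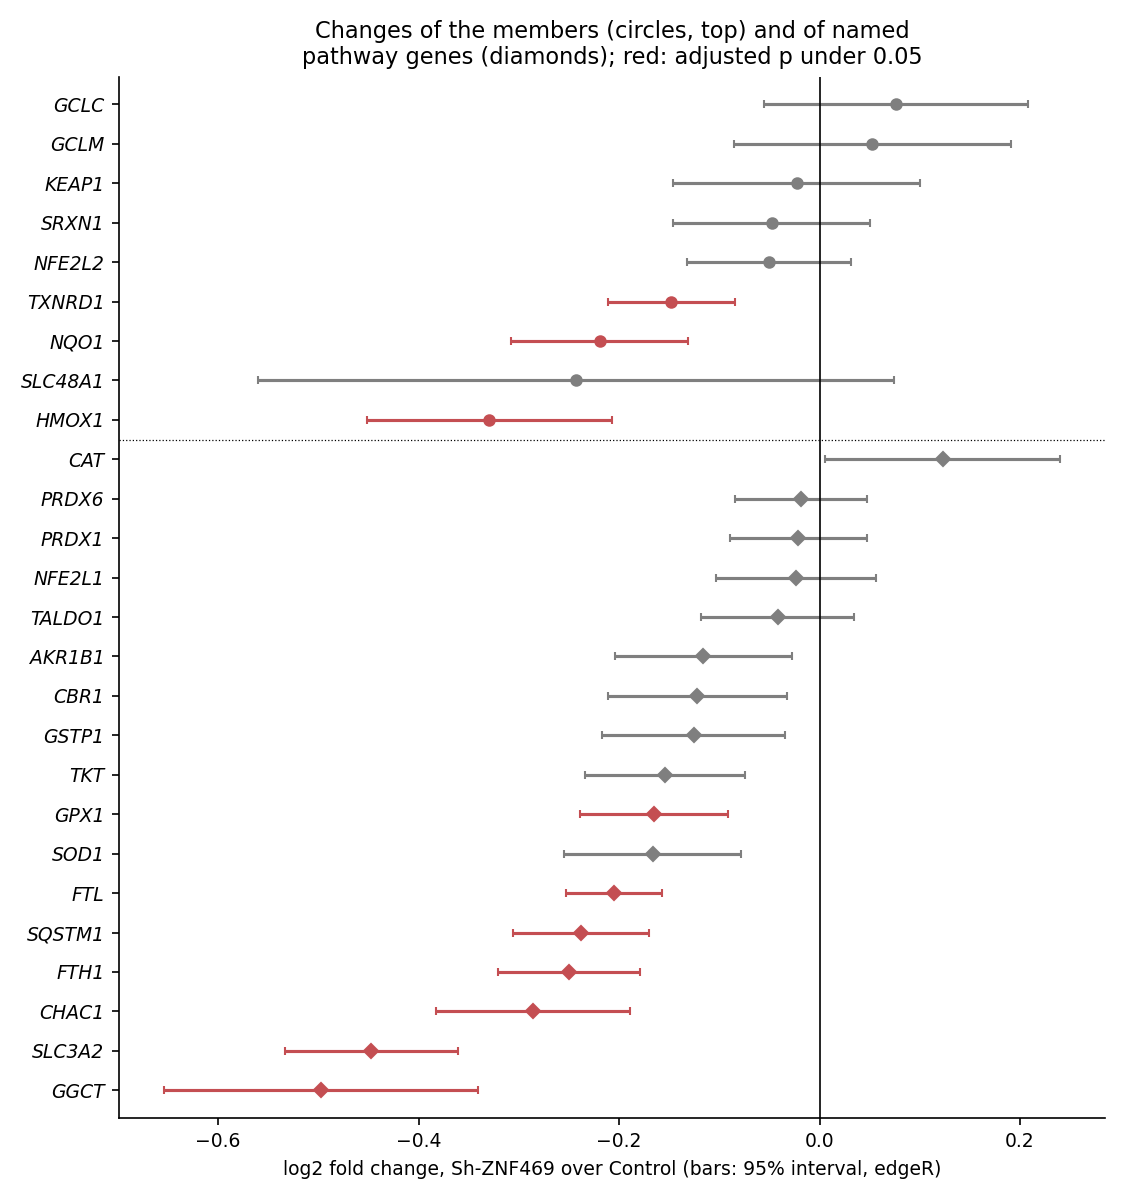
Log2 fold change (Sh-ZNF469 over Control, horizontal axis) with its 95% interval from edgeR for the 9 NRF2 antioxidant genes (circles, above the dotted line) and the 17 named genes of the wider pathway (diamonds). Red marks the 3 and 7 genes with an adjusted p under 0.05, all of them below 0.

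Levels of different genes were compared per transcript length, in the FPKM values that the authors deposited. In Control, TXNRD1 was the most abundant of the 9 genes at 153 ± 2.92 FPKM (SD, n = 3), 2.76 times the level of NQO1 at 55.2 ± 1.57 FPKM. NFE2L2 followed at 36.8 ± 0.554 FPKM, then SRXN1 at 32.2 ± 0.993 FPKM, HMOX1 at 20.4 ± 0.680 FPKM and KEAP1 at 19.4 ± 0.683 FPKM. The least abundant were GCLM at 8.50 ± 0.187 FPKM, GCLC at 7.35 ± 0.0940 FPKM and SLC48A1 at 2.85 ± 0.345 FPKM. HMOX1 and KEAP1 were the only neighbours in this order whose Control libraries overlapped.

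In the Sh-ZNF469 libraries the order of the levels was kept except for one exchange. HMOX1, at 16.7 ± 0.667 FPKM (SD, n = 3), came below KEAP1, at 19.4 ± 1.01 FPKM (SD, n = 3), and their libraries no longer overlapped. GCLM (8.91 ± 0.860 FPKM) and GCLC (8.04 ± 0.745 FPKM) now overlapped. TXNRD1 was at 141 ± 3.51 FPKM, NQO1 at 47.4 ± 2.15 FPKM and SLC48A1 at 2.43 ± 0.262 FPKM.

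**Figure D3:**
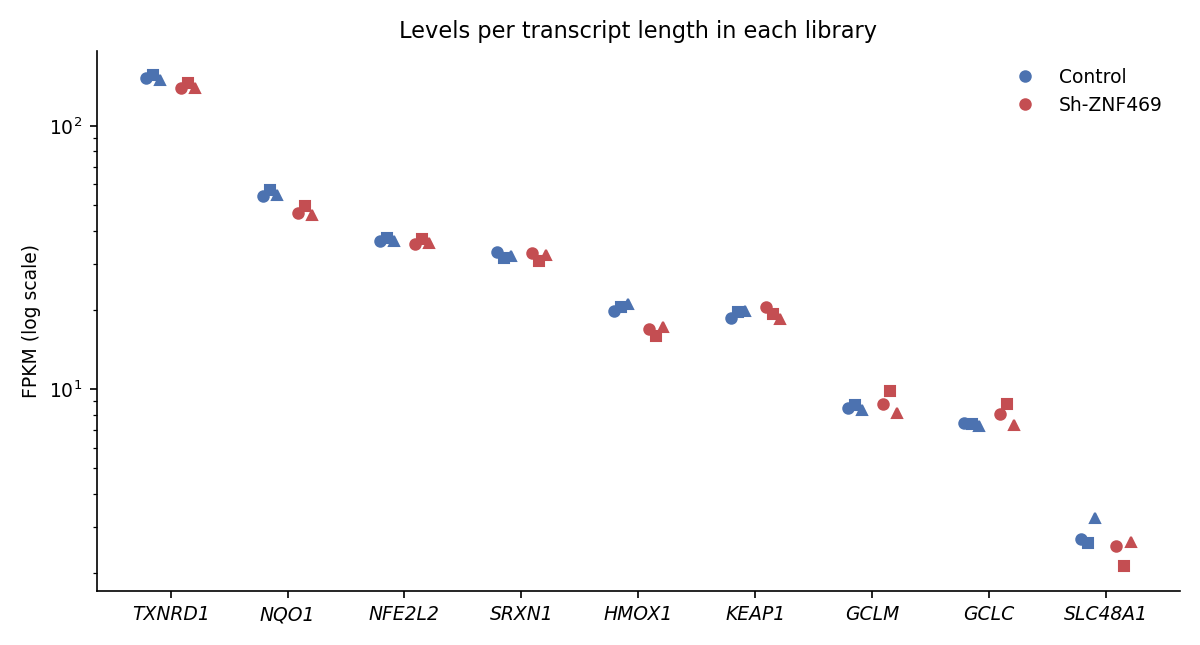
FPKM of the 9 genes in each library on a log scale, ordered by the Control mean, with Control in blue, Sh-ZNF469 in red, and circles, squares and triangles for replicates 1, 2 and 3. TXNRD1 lies highest, at 139 to 156 FPKM, and SLC48A1 lowest, at 2.13 to 3.25 FPKM.

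The wider pathway was described with 94 further genes in 7 lists, of which 91 were tested. AKR1C2, AKR1C3 and ALDH3A1 had too few counts. Of the 91, 7 were called lower and 0 higher at an FDR of 0.05, beside 0.715% and 0.400% of all features. At an unadjusted p under 0.05 the counts were 24 and 4, beside 7.69% of all features lower and 7.31% higher. DESeq2 also called 0 of them higher. The log2 fold change was below 0 for 53 and above 0 for 38, with a median of −0.02, beside −0.00 for all features. The groups were apart in the lower direction for 29 of the 91 genes and in the higher direction for 3, beside 10.6% and 9.73% of all features.

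The 7 genes that fell belonged to iron storage, glutathione and cystine handling, and NRF2 turnover. FTL and FTH1, the light and heavy chains of ferritin, which stores iron such as that released by haem oxygenase, fell by 0.21 and 0.25 on the log2 scale (edgeR adjusted p = 3.37e-04 and 0.00200). FTL was at 2269, 2246 and 2240.0 CPM in Control and 1972, 1908 and 1979 CPM in Sh-ZNF469, and FTH1 at 1557, 1521 and 1648 CPM against 1302, 1297 and 1375 CPM. The groups did not overlap for either chain, but both calls were lost with limma on log2(FPKM + 0.1) (adjusted p = 0.107 and 0.155). Ferritin has many near-identical pseudogene copies, and none is listed in the table, so reads of these copies could not be separated and both values are uncertain. The other 7 of the 9 haem and iron genes tested, HMOX2, BLVRA, BLVRB, FECH, SLC40A1, ABCB6 and PIR, did not pass, and the median of the list was −0.12.

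Among 27 glutathione genes, 4 were called lower and 0 higher, beside 0.715% and 0.400% of all features. The median log2 fold change of the list was −0.03. SLC3A2, the heavy chain that SLC7A11 needs for cystine uptake and that also serves other amino acid transporters, was at 238, 238 and 242 CPM in Control and 177, 167 and 183 CPM in Sh-ZNF469. It fell by 0.45 on the log2 scale (SE 0.0400, edgeR adjusted p = 5.32e-05). GGCT, a gamma-glutamylcyclotransferase of glutathione breakdown, was at 20.8, 21.7 and 22.0 CPM against 16.0, 15.3 and 14.3 CPM, and fell by 0.50 (SE 0.0726, edgeR adjusted p = 0.00431). CHAC1, which cleaves glutathione, was at 104, 112 and 104 CPM against 90.4, 86.0 and 86.6 CPM, and fell by 0.29 (edgeR adjusted p = 0.00615), a call that limma on log2(FPKM + 0.1) did not give (adjusted p = 0.104). In each of these 3 genes the groups were apart. SLC3A2 and CHAC1 are also known targets of the stress factor ATF4. Other genes of glutathione breakdown in the list, CHAC2, GGT1 and GGT5, did not pass, with log2 fold changes of 0.14, 0.01 and 0.04, and neither did GSS of its synthesis.

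The fourth gene of the list, GPX1, a selenium-dependent glutathione peroxidase, was at 270.1, 270.1 and 276 CPM in Control and 247, 237 and 244 CPM in Sh-ZNF469, and fell by 0.17 (edgeR adjusted p = 0.0376). The groups were apart, but this call was lost in all 6 fits that left out a library and with the trend on transcript length removed (adjusted p = 0.158). GPX1 also has pseudogene copies that the table does not list. SLC7A11, the cystine transporter itself and a well-known NRF2 target, had a log2 fold change of −0.25 that missed the threshold (edgeR adjusted p = 0.0723); it is named here because of its pairing with SLC3A2, after its values were seen. GSTP1, the most abundant gene of the list per length, had a log2 fold change of −0.13 (edgeR adjusted p = 0.185).

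SQSTM1 was the 1 gene called among 14 that encode NRF2 partners, competitors or turnover factors, beside 0.715% of all features called lower. It encodes p62, an autophagy receptor that binds KEAP1 and is itself an NRF2 target. Its level was 495, 495 and 511 CPM in Control and 423, 416 and 434 CPM in Sh-ZNF469, with no overlap between the groups. SQSTM1 fell by 0.24 on the log2 scale (SE 0.0313, edgeR adjusted p = 0.00200), and the call held in all 15 alternatives, as it did for SLC3A2 and GGCT. Of the other 13 genes, among them the small MAF genes MAFF, MAFG and MAFK, the repressor BACH1 and the ligase scaffold CUL3, none passed. The groups were apart in the higher direction for BACH1 (log2 fold change 0.10, edgeR adjusted p = 0.306). They were apart in the lower direction for MAFG (−0.07, 0.508) and RXRA (−0.21, 0.188). Over all features, 9.73% were apart in the higher direction and 10.6% in the lower. NFE2L1, the NRF2 relative with the second highest level in the list, had a log2 fold change of −0.02 (edgeR adjusted p = 0.812).

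In the remaining lists no gene passed the test. The 16 thioredoxin and peroxiredoxin genes had a median log2 fold change of −0.00, with 8 below and 8 above 0. The peroxiredoxins PRDX1 and PRDX6, the most abundant of them, were each at −0.02 (edgeR adjusted p = 0.802 and 0.819). TXNRD1 therefore fell by the test while its substrate gene TXN and the mitochondrial reductase gene TXNRD2 did not pass. The difference between these genes was not tested. Of 6 genes of NADPH supply, 5 were below 0, including TKT of the pentose phosphate pathway at −0.15 (edgeR adjusted p = 0.0703) and TALDO1 at −0.04 (0.620), and the median was −0.08. The 15 tested detoxification genes had a median of −0.12, with AKR1B1 and CBR1 each at −0.12 (edgeR adjusted p = 0.208 and 0.188). Of the 4 genes that remove superoxide and hydrogen peroxide, SOD1 had a log2 fold change of −0.17 (edgeR adjusted p = 0.0769) and catalase, CAT, one of 0.12 (0.308).

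**Figure D4:**
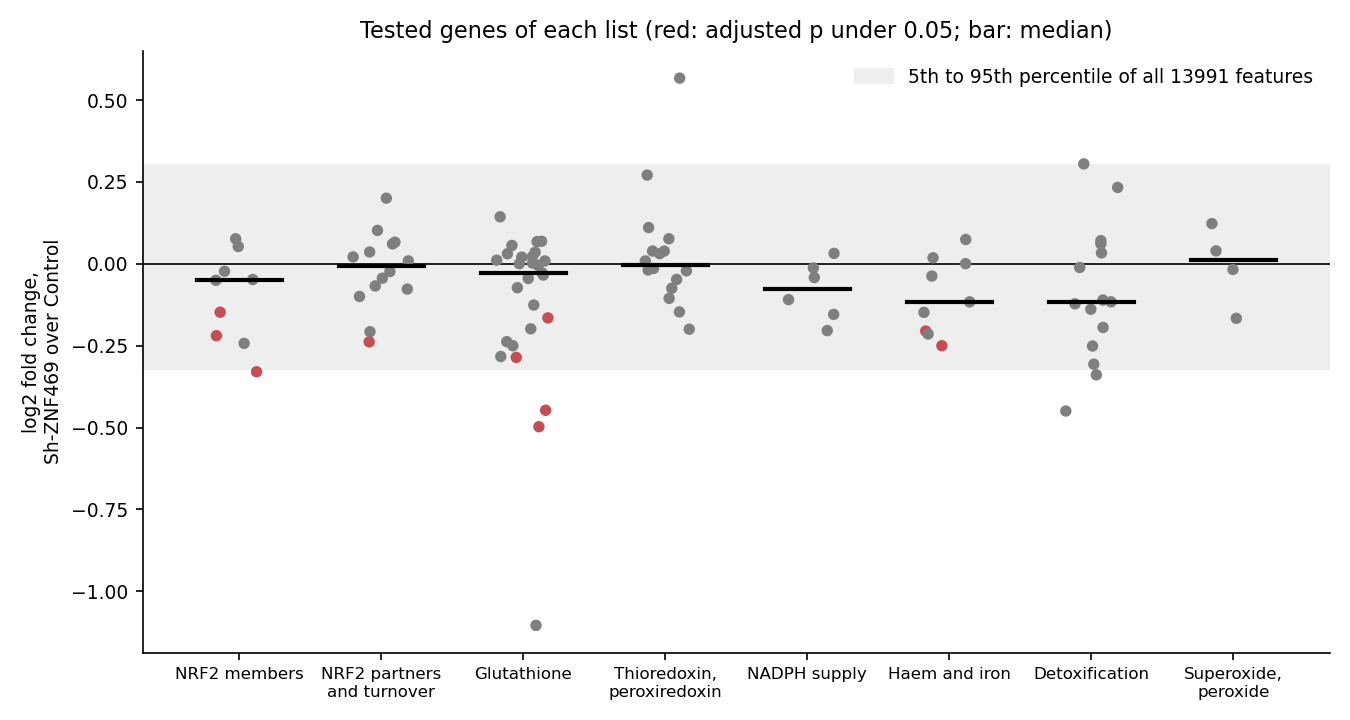
Log2 fold change (Sh-ZNF469 over Control, vertical axis) of every tested gene in the 9 NRF2 antioxidant genes and the 7 pathway lists, with 1 point per gene, red where the adjusted p was under 0.05, a black bar at the median and grey shading for the 5th to 95th percentile of all 13991 features. The red points are 3 of the 9 genes, 4 glutathione genes, 2 haem and iron genes and 1 turnover gene, and the list medians lie between −0.12 and 0.01.

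The calls of HMOX1, NQO1 and TXNRD1 were close to the threshold under most settings. All 3 held with upper-quartile scaling, both other filters on low counts, the replicate block, the length trend removed, DESeq2 and limma-voom. Of the 15 alternatives, HMOX1 was called in 11, NQO1 in 10 and TXNRD1 in 8. Each kept its sign in all of them, with log2 fold changes from −0.36 to −0.29 for HMOX1, from −0.24 to −0.19 for NQO1 and from −0.16 to −0.11 for TXNRD1. Without Sh-ZNF469 replicate 2, the library that stood apart, all 3 were called.

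**Figure D5:**
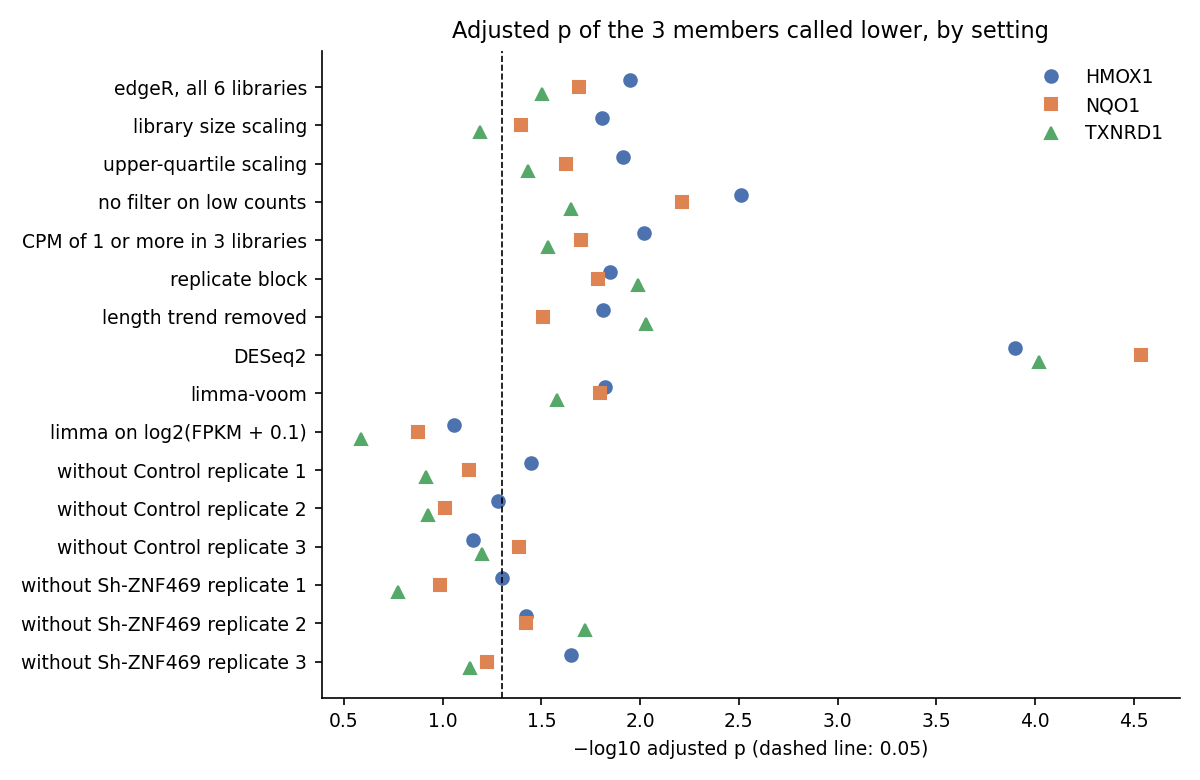
Adjusted p of HMOX1 (circles), NQO1 (squares) and TXNRD1 (triangles) on a −log10 axis for the fit of all 6 libraries by edgeR and the 15 alternatives, with a dashed line at 0.05. Points right of the line are called, and all 3 genes lie left of it without Control replicate 2, without Sh-ZNF469 replicate 1, where HMOX1 is almost on the line, and with limma on log2(FPKM + 0.1).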

How the data were processed

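Libraries were made from poly(A)-selected RNA with a NEBNext Ultra II kit. The authors used HISAT2 for alignment (GRCh38) and StringTie after it; versions, annotation release, counting step and strand setting are not given in the sources used here. Whole-number counts and FPKM per gene and library were deposited by the authors. The 9 genes and all gene lists were chosen with earlier results of these data known.

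The 17 stray lines of the table were dropped. Counts were filtered with filterByExpr (minimum count 10), scaled by TMM and tested with edgeR 4.0.16 (quasi-likelihood test, R 4.3.3, no covariates), with Benjamini-Hochberg adjustment over 13991 features. The SE was taken from the size of the log2 fold change over the root of F. Figures and levels used CPM or FPKM. Libraries held 34057675 to 36120260 counts, and single libraries held from 194 counts of SLC48A1 to 23805 counts of TXNRD1. The part of sampling error in the spread was not estimated. No library duplicated another: pairs within a group differed by a chi-square of at least 4.53 per degree of freedom.

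Alternatives were DESeq2 1.42.0, limma-voom and limma 3.58.1 on log2(FPKM + 0.1), other scalings and filters (none; CPM of 1 in 3 libraries), a replicate block, removal of a lowess trend on implied transcript length (span 0.3), and leaving out each library. Scripts were tested on simulated counts. The genes named are the 9, ZNF469, and from each list every gene past an FDR of 0.05 and the 2 with the highest mean FPKM. Genes of those lists that are named otherwise were named after their values were seen. Positions are from GENCODE 44 (GRCh38).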

Additional observations from a re-analysis of the deposited data

How the results depend on the processing

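Of the 9 NRF2 antioxidant genes, 3 were called lower with all libraries, between 0 and 3 when each library was left out in turn, 0 with limma on log2(FPKM + 0.1) and 0 when an absolute log2 fold change above 1 was also required; the cause was not tested. The other pathway genes called lower numbered 7, against 12 with no filter on low counts, 13 with DESeq2 and 3 with limma on log2(FPKM + 0.1). Over all features, 100 were lower and 56 higher, against 163 and 127 with no filter, 265 and 266 with DESeq2, 24 and 6 with limma on log2(FPKM + 0.1), 77 and 88 with library size scaling, and 54 to 92 and 20 to 69 with a library left out. The share of higher calls was 35.9% with TMM and 53.3% with library size scaling, which moved the median log2 fold change of all features from −0.0019 to 0.0188. With the replicate number as a replicate block, 3 of the 9 genes and 12 other pathway genes were called lower, and 157 features were lower and 135 higher. The deviations of equally numbered libraries correlated at 0.0028, −0.027 and 0.068, and only replicate 3 correlated best with its own number in both groups. With 3 libraries per group, these correlations cannot decide whether equally numbered libraries share a batch, which the labels do not state. Signs turned for genes near 0 only. KEAP1 became 0.0009 with limma on FPKM and ran from −0.0818 to 0.0153 with a library left out, above 0 without Control replicate 3 (0.0144) and without Sh-ZNF469 replicate 3. GCLM ran from −0.0157 (without Sh-ZNF469 replicate 2) to 0.1148. NFE2L1 became 0.0035 with limma on FPKM and ran from −0.0475 to 0.0048 with a library left out, above 0 without Control replicate 3 (0.0017) and without Sh-ZNF469 replicate 2. PRDX1 became 0.035 with the length trend removed and 0.0163 with limma on FPKM, PRDX6 0.0159 and 0.0178 under these settings and 0.0019 with library size scaling, and TALDO1 0.004 with the length trend removed. SLC48A1 had the fewest counts of the 9 genes, and each gene was compared with only 3 libraries per group.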

Other observations

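GSTM1, a glutathione S-transferase gene named because of its values, had 116, 130 and 133 counts in Control replicates 1, 2 and 3 and 128, 0 and 54 counts in Sh-ZNF469 replicates 1, 2 and 3. Sh-ZNF469 replicate 1 lay within the Control range, and replicate 2 had no count. Its log2 fold change of −1.10 did not pass edgeR's quasi-likelihood test (SE 0.668, adjusted p = 0.470). Its close relatives GSTM2 and GSTM4, with which it can share reads, had 992 to 1184 and 620 to 745 counts in the 6 libraries, with no library apart from the others.

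GPX4, the peroxidase of membrane lipids, was also chosen after its values were seen. It was at 184, 188 and 193 CPM in Control and 167, 153 and 172 CPM in Sh-ZNF469. The groups were apart, yet GPX4 did not pass the FDR (log2 fold change −0.20, edgeR adjusted p = 0.0666).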
